A study of Homo sapiens with 9 samples.

Results

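MOLM13, an established acute myeloid leukaemia cell line, was grown for 72 h with 50 nM mezigdomide (CC-92480) or with its solvent DMSO, and the transcripts of the 2 conditions were compared gene by gene. The genes described are all rows of the authors' deposited table for this contrast that name a gene and hold an adjusted p, without second copies on chromosome Y, which makes 20819 of 59699 rows. The series holds 9 poly(A) RNA libraries, 3 from cells given DMSO, 3 from cells given 50 nM mezigdomide and 3 from cells given 1 µM iberdomide (CC-220), all at 72 h. All cultures were of 1 cell line in RPMI1640 with serum. The treatment field of the mezigdomide libraries reads CC-92840, while their titles and the treatment protocol carry the compound code given above. Whether the replicate libraries stem from separate cultures is not stated in the labels, and the p-values then measure only the spread among the sequenced libraries, which may be technical.

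Mezigdomide is a small molecule that binds cereblon, the part of a ubiquitin ligase that recognises its targets, and directs the ligase to zinc finger transcription factors of the Ikaros family, chiefly IKZF1 and IKZF3, which are then degraded. Ikaros proteins bind DNA and recruit complexes that mostly repress transcription in blood cells. MOLM13 cells are arrested at an early monocytic stage, in which genes of progenitors and of granule formation are active and many genes of mature macrophages are low.

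The table gives no value per library. Each gene has a normalised count averaged over all 9 libraries (called its mean count here), a log2 fold change of mezigdomide over DMSO that the authors shrank towards 0, its standard error (SE) and a Wald test with Benjamini-Hochberg adjustment. The replicate spread enters only through the SE, and whether single libraries overlap between the groups was not analysed here. An average level for each group was computed from the mean count and the fold changes of both drugs, in the same unit, and is called the implied level. The depth of single libraries is not given in the sources used.

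The line label was checked against markers of the cell types a culture could hold. Of 15 markers of myeloid leukaemia cells, 14 had a mean count of at least 50, led by the lysozyme gene LYZ. Of the 15, 8 were higher under mezigdomide, among them KIT with a mean count of 15.6. Of all tested genes 10.4% were higher, and 14.9% of those with a mean count of at least 50. PTPRC, FLT3, SPI1, CEBPA, HOXA9, MEIS1 and FCGR1A did not pass. The summed implied level of the 15 markers was 72423 under DMSO and 109360 under mezigdomide. Of 10 erythroid and megakaryocyte markers, 8 had a mean count of 0, among them the globin genes HBB and HBA1. COL1A1 was the 1 fibroblast marker of 10 with a mean count of at least 50, and the summed implied level of those 10 was 112 under DMSO and 190 under mezigdomide. The summed implied level of the 7 B lymphocyte markers was 61.3 under DMSO and 63.3 under mezigdomide. For 9 T and NK lymphocyte markers it was 2315 and 2345, with 4 at a mean count of at least 50. Among these GNLY rose by 2.71 on the log2 scale, and TRAC, NKG7 and NCAM1 did not pass. CD3D, with a mean count under 50, was lower. For 7 endothelial markers the summed implied level was 3435 and 4738, nearly all from PECAM1, which myeloid cells also express. PECAM1 was higher, and VWF and EGFL7, each with a mean count under 50, were lower. For 8 epithelial markers the summed implied level was 457 and 751. CLDN7 was higher by 1.54 on the log2 scale, and KRT18 was lower. The part of these markers in the results was not tested.

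Of the 20819 genes, 4405 passed an adjusted p of 0.05 by the authors' deposited table, which is 21.2% of those tested. Higher under mezigdomide were 2172 genes (10.4%) and lower were 2233 (10.7%). The median fold of the higher genes was 1.45 and that of the lower genes, as DMSO over mezigdomide, 1.38. Rises reached further than falls. At least 2-fold changes were found in 412 higher and 237 lower genes, at least 4-fold changes in 106 and 24, and at least 8-fold changes in 25 and 6. The higher genes made up 11.1% of all implied counts under DMSO and 15.6% under mezigdomide, and the lower genes made up 15.5% and 11.9%. RNA per cell and the share of cells in a given state cannot be told apart in these bulk libraries.

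**Figure D1:**
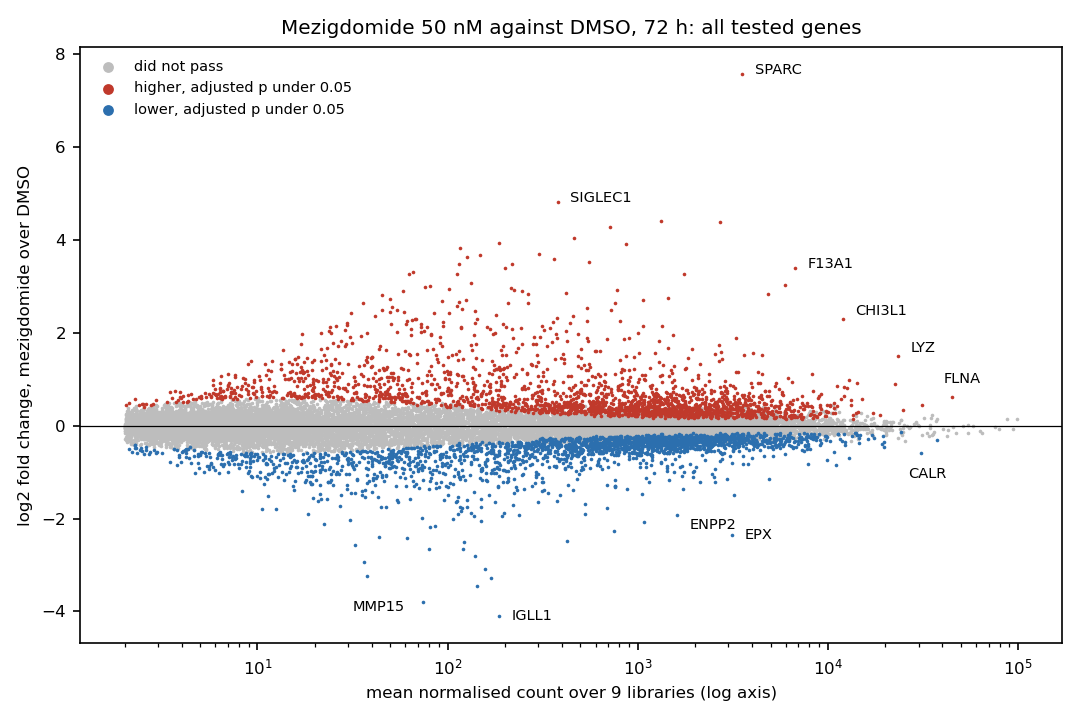
Log2 fold change of mezigdomide over DMSO (vertical axis) against the mean normalised count over all 9 libraries (horizontal log axis) for the 20819 tested genes. Each point is a gene, coloured where its adjusted p is under 0.05. The higher genes extend to 7.58 (SPARC) and the lower genes to -4.10 (IGLL1).

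How often a gene passed depended on its level. At a mean count under 10, 4.23% of 5252 genes passed, and at 100 to 500, 33.0% of 2937 did. Above a mean count of 50, where 12080 genes lie, 14.9% were higher and 15.5% lower, and these shares are the ones against which the gene lists are set below. The median log2 fold change of all tested genes was -0.0070. Processed pseudogenes, which mostly have low counts, passed in 1.72% of 2211 cases.

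Direction also went with the make-up of the transcript. Among 10906 genes with a mean count of at least 100 and a GENCODE gene model, the quintile with the highest GC content had 9.49% higher and 33.0% lower genes. The quintile with the lowest GC content had 20.1% higher and 6.37% lower genes. By transcript length, 6.09% of the shortest quintile were higher and 21.3% lower, against 25.2% and 6.19% of the longest quintile. Across these genes the Spearman correlation of the log2 fold change was -0.274 with GC content and 0.370 with length, as a description over genes that share the same 6 libraries. The part of this trend in the results was not tested. As an alternative, a trend of the Wald statistic with GC content and length was fitted and subtracted from each gene's statistic. With the trend removed 2181 genes were higher and 1800 lower, and 3126 of the 4381 called genes with a gene model kept their call and direction. Other genes passed only with the trend removed, and these are not listed by name. Genes named in the following whose call ended with the trend removed are listed where they occur, unless that outcome is stated as not given.

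**Figure D2:**
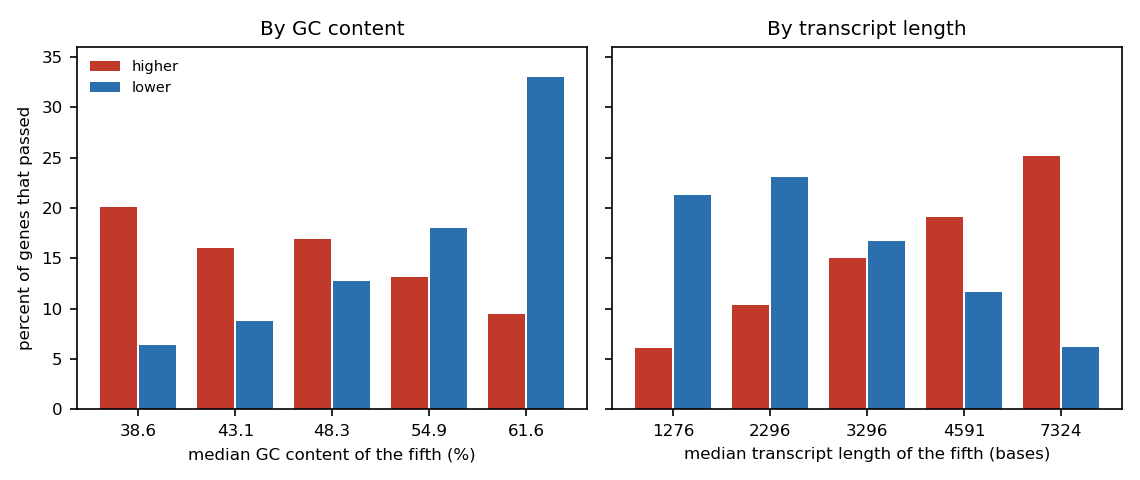
Percent of genes higher (red) and lower (blue) under mezigdomide in quintiles of GC content (left) and of transcript length (right), over 10906 genes. Each tick gives the median of its quintile. Lower genes reach 33.0% in the quintile with the highest GC content and higher genes 25.2% in the quintile with the longest transcripts.

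The shares also differed between chromosomes. On chromosome 19, 270 of 1423 tested genes (19.0%) were lower and 104 (7.31%) were higher, against 10.7% and 10.4% of all tested genes. On chromosome 22, 17.8% of 518 genes were lower. On chromosome 3, 13.3% of 1101 genes were higher and 7.63% lower. Of 24 genes of the mitochondrial chromosome 2 were lower, with a median log2 fold change of -0.18. Whether the shares per chromosome follow the trend in GC content and length was not tested.

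Genes of secreted and surface proteins were among those with the largest rises. After SPARC, a secreted matrix glycoprotein whose implied level went from 32.3 under DMSO to 6167 under mezigdomide, the surface receptor genes SIGLEC1 and TREM2 and the calprotectin subunit gene S100A9 led the order. S100A9 stood at an implied 110 under DMSO and 2337 under mezigdomide, and TREM2 at 194 and 4053. Among the genes with the highest Wald statistics, CHI3L1, a chitinase-like protein secreted by macrophages (chromosome 1, 203178931 to 203186749, GRCh38), had the highest mean count, 12015, in the authors' deposited table. By the authors' deposited table CHI3L1 rose 4.93-fold, or 2.30 (SE 0.063) on the log2 scale. Its implied level was 3507 under DMSO and 17278 under mezigdomide.

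F13A1, the catalytic subunit of coagulation factor XIII, which monocytes and macrophages make (chromosome 6, 6144085 to 6321013), stood 10.6-fold above DMSO, at 3.40 (SE 0.097) on the log2 scale in the authors' deposited table. Its implied level went from 1030 to 10878. FCGRT, the heavy chain of the neonatal Fc receptor that rescues IgG from degradation (chromosome 19, 49506816 to 49526333), stood 8.14-fold above DMSO, at 3.02 (SE 0.089) on the log2 scale in the authors' deposited table, from an implied 1064 to 8660. These 2 genes were already present at about 1000 normalised counts under DMSO, unlike most other genes of the group, whose implied DMSO levels were below 100.

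Other secreted proteins in the group were RNASE1, a secreted ribonuclease (log2 3.64, SE 0.19), WNT7B, a Wnt ligand (3.60, SE 0.13), and LGALS3BP, which binds galectin-3 (3.09, SE 0.18), in the authors' deposited table. On the cell surface, NRP1, a co-receptor for semaphorins and vascular endothelial growth factor (chromosome 10, 33177492 to 33336262), rose 11.5-fold in the authors' deposited table, and its implied level went from 84.6 to 972.5. TREML1, a neighbour of TREM2, stood at 3.48 (SE 0.20) and the voltage-gated potassium channel KCNQ3 at 3.49 (SE 0.17) in the authors' deposited table. The peptidase ACE, which makes angiotensin II, rose 12.7-fold in the authors' deposited table. ACE shares 23.9% of its exon bases with another gene on the same strand, and reads of the pair may not be told apart.

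Enzymes and regulators followed. The aromatase CYP19A1 stood at 3.01 (SE 0.22), the lysine-degrading aldehyde dehydrogenase ALDH7A1 at 3.31 (SE 0.21) and the oxysterol-binding OSBP2 at 3.40 (SE 0.17) in the authors' deposited table. EPAS1, the oxygen-regulated transcription factor HIF-2 alpha, stood 7.59-fold above DMSO, at 2.92 (SE 0.17) on the log2 scale in the authors' deposited table, from an implied 49.4 to 375. SERPINB10, an intracellular serpin beside SERPINB2 on chromosome 18, rose to an implied 2675 from 277, but shares 20.3% of its exon bases on the same strand.

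The largest falls were smaller and mixed in function. MMP15, a membrane-anchored matrix metalloproteinase (chromosome 16, 58025566 to 58046901), had the second largest fall after IGLL1 among genes with a mean count of at least 50, at -3.80 (SE 0.20) in the authors' deposited table. Its implied level went from 192 under DMSO to 13.8 under mezigdomide. Genes of eosinophil granules were among the falls. EPX, the eosinophil peroxidase (chromosome 17, 58192737 to 58205174), had the lowest Wald statistic of all tested genes, -25.4, in the authors' deposited table. The implied level of EPX was 6358 under DMSO and 1240 under mezigdomide. CLC, which forms the crystals seen around eosinophils, stood at -2.41 (SE 0.22), and CEBPE, a transcription factor of granulocyte maturation, at -1.88 (SE 0.15) in the authors' deposited table. PRG2, the eosinophil major basic protein, fell less, by 0.46 on the log2 scale (SE 0.12) in the authors' deposited table, and shares 43.0% of its exon bases with another gene.

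Several falls were in secreted signals and their antagonists. OSM, the cytokine oncostatin M, stood at -2.06 (SE 0.16), STC2, stanniocalcin-2, at -1.99 (SE 0.22), ADM2, an adrenomedullin-type peptide, at -1.77 (SE 0.18) and NOG, the BMP antagonist noggin, at -1.93 (SE 0.15) in the authors' deposited table. ENPP2, the secreted enzyme autotaxin, which makes lysophosphatidic acid, was among the more abundant of the falling genes, with an implied 2955 under DMSO and 783 under mezigdomide. Its log2 fold change was -1.92 (SE 0.082) in the authors' deposited table.

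Enzyme genes that fell included LDHD, the D-lactate dehydrogenase (-2.65, SE 0.19), LIPE, the hormone-sensitive lipase (-2.18, SE 0.19), and TK2, the mitochondrial thymidine kinase (-1.89, SE 0.089), in the authors' deposited table. TK2 shares 21.9% of its exon bases with a gene on the opposite strand, and the library kit is not stated to keep strand. ZDHHC8, a palmitoyltransferase (chromosome 22, 20129456 to 20148007), went from an implied 1649 to 395, and BCR, on the same chromosome, from 1177 to 347.

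**Figure D3:**
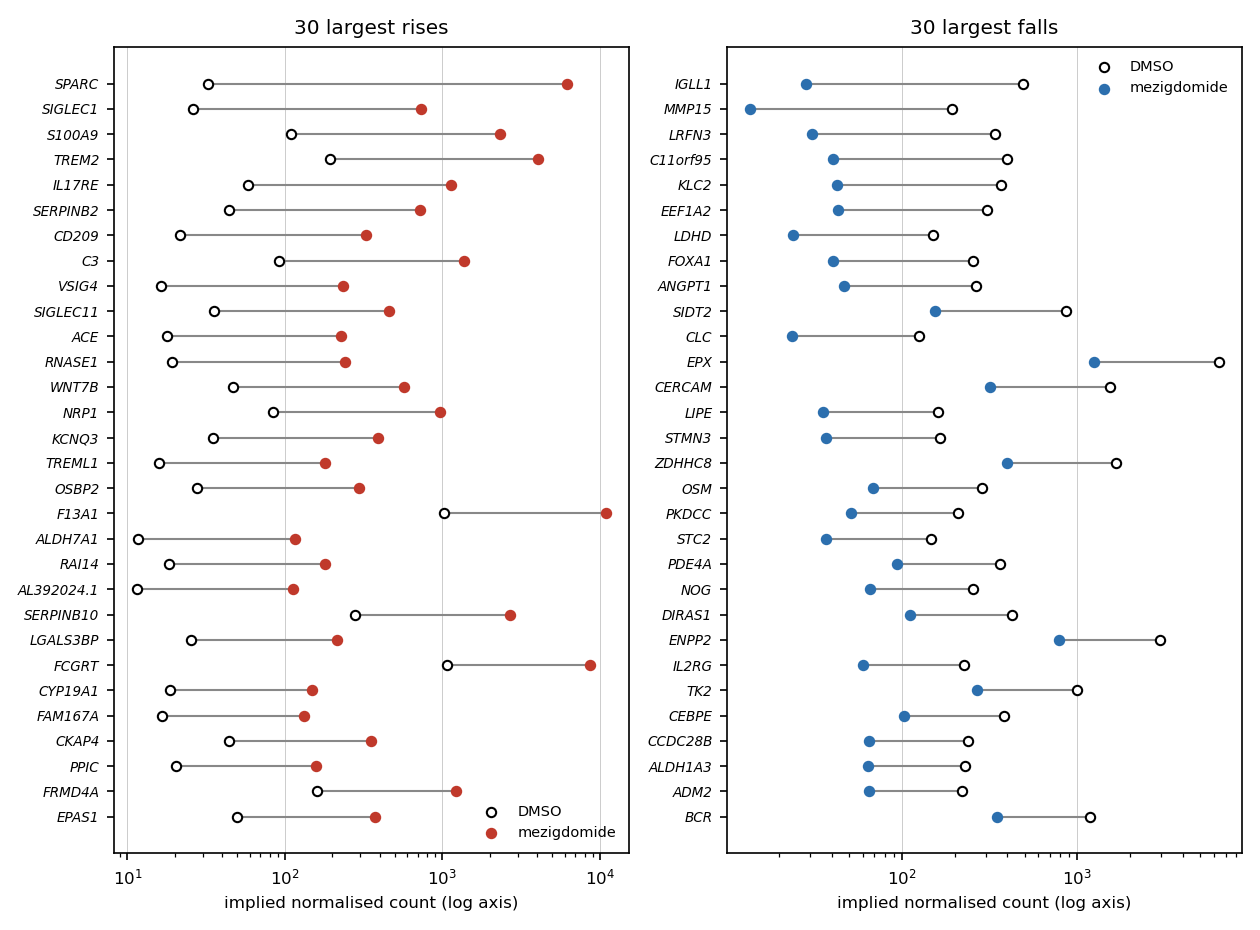
Implied normalised count per group (horizontal log axis) for the 30 genes with the largest rises (left) and the 30 with the largest falls (right), among called genes with a mean count of at least 50. Open circles are DMSO and filled circles mezigdomide, each an average computed from the deposited fold changes, with no error bar. F13A1 and FCGRT start above 1000 among the rises, and EPX has the highest DMSO level, 6358, among the falls.

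Upstream DNA was read for the 8 rising and 8 falling genes with the most extreme Wald statistics that had a RefSeq promoter and were eligible for printing (GRCh38.p14). Of these 16 windows of 250 bases before the RefSeq start, 3 held no base of a GENCODE exon. They are shown because they give the DNA before the RefSeq start of S100A9 and the non-coding gene LINC01140, which rose, and of LRFN3, a synaptic adhesion protein gene, which fell. S100A9 is read from the plus strand at chr1:153357604-153357853, LINC01140 from the plus strand at chr1:87129515-87129764 and LRFN3 from the plus strand at chr19:35936124-35936373. The LRFN3 window lies within the GENCODE span of that gene, between exons, since GENCODE places its start upstream of the RefSeq start. Capitals mark the letters TGGGAA, a core bound by Ikaros proteins, AGGAAGT (PU.1), TTGCNNAA (C/EBP) or TGANTCA (AP-1), on either strand.
S100A9: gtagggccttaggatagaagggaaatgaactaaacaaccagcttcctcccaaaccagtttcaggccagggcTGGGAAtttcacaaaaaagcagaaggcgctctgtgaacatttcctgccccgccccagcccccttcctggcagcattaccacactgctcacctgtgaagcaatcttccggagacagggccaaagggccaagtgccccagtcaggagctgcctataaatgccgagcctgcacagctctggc
LINC01140: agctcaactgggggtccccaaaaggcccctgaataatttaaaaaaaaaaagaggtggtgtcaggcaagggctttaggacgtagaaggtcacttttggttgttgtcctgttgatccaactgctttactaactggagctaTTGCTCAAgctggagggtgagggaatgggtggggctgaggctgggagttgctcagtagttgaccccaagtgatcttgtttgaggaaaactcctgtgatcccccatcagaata
LRFN3: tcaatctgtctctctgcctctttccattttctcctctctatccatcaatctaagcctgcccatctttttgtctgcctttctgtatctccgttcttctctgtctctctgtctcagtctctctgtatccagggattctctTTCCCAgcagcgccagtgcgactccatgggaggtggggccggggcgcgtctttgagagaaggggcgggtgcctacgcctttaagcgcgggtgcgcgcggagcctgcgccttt
The windows of S100A9 and LRFN3 each hold the Ikaros letters once, the former a gene that rose and the latter a gene that fell, and that of LINC01140 holds the C/EBP letters. Of 27305 RefSeq promoters read the same way, 21.1% hold the Ikaros letters, 7.10% those of PU.1, 9.13% those of C/EBP and 6.60% those of AP-1. A match describes these letters and is not a measured binding site.

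Abundant genes moved less. The most abundant called genes that rose were FLNA, the actin cross-linker filamin A (0.61, SE 0.15), MYH9, non-muscle myosin (0.45, SE 0.13), and ACTR2, a subunit of the actin-nucleating Arp2/3 complex (0.34, SE 0.058), in the authors' deposited table. Of these 10, LYZ had the largest fold change, with an implied 10845 under DMSO and 30889 under mezigdomide, followed by GRN, the lysosomal progranulin, with 8997 and 17007. LYZ shares 34.0% of its exon bases with a gene on the opposite strand. The most abundant genes that fell were AZU1, the granule protein azurocidin (-0.31, SE 0.084), and CALR, the calcium-binding chaperone calreticulin (-0.58, SE 0.075), in the authors' deposited table. Of these abundant genes AZU1, TRIM28, LDHA, BSG and SF3B1 did not pass with the trend in GC content and length removed.

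To describe the rest of the response, 49 lists with 1186 distinct genes were used, of which 1129 were tested. Counts of members that rose or fell are of those that passed the authors' Wald test. The list medians were above 0 in 27 lists and below 0 in 22. No set test was run, and the counts are read against the 14.9% higher and 15.5% lower of all genes with a mean count of at least 50. List counts take in tested members of any mean count, so the sets set side by side differ in this. Of the members named below, KCNH2, PORCN, PTGDS, SULF2, SEMA3F and RGS3 had a mean count under 50.

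**Figure D4:**
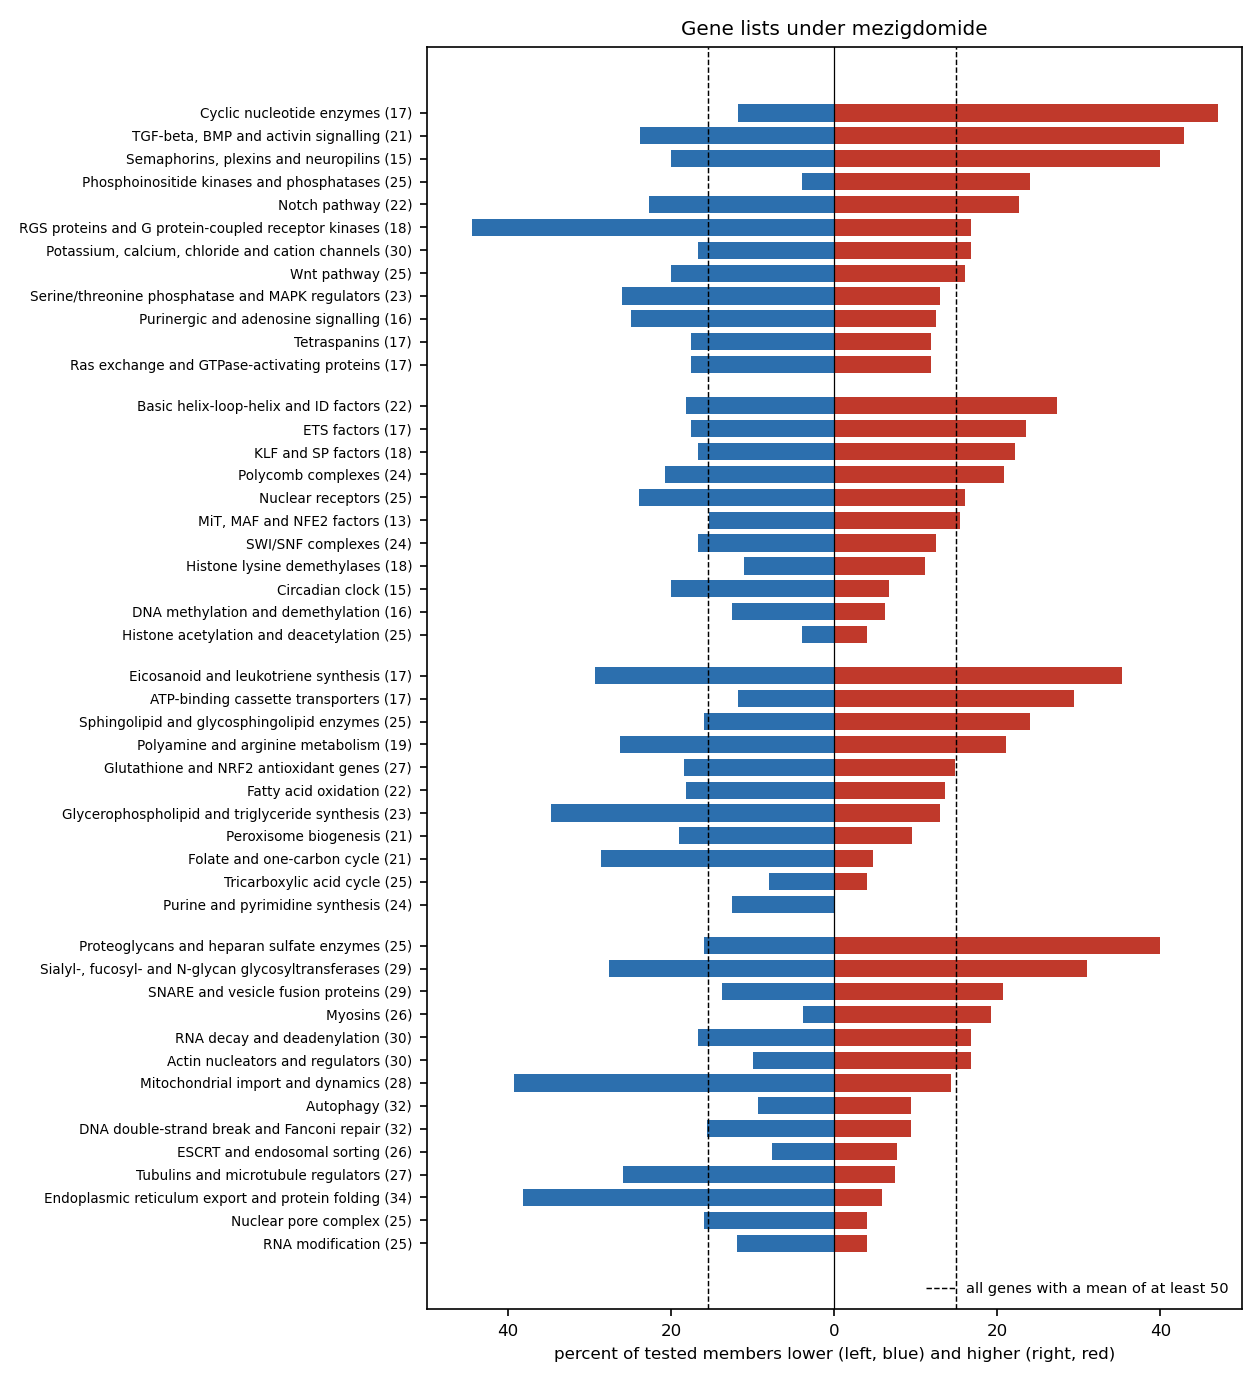
Percent of the tested members of each gene list shown that were lower (blue, left) and higher (red, right) under mezigdomide, with the number tested in parentheses. Dashed lines mark 14.9% higher and 15.5% lower, the shares over all genes with a mean count of at least 50. Blocks from top to bottom are signalling, regulators of transcription, metabolism and cell machinery.

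Of the members of the gene lists, NRP1 had the highest log2 fold change. Of 15 semaphorin, plexin and neuropilin genes 6 rose and 3 fell, with a median log2 fold change of 0.23. Beside NRP1, the plexin PLXNA2 rose to 2.48 (SE 0.16) and the semaphorin SEMA4A to 0.60 (SE 0.099) in the authors' deposited table. PLXNC1, a plexin of leukocytes, stood at -0.86 (SE 0.15) and the secreted SEMA3F at -0.92 (SE 0.21) in the authors' deposited table.

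Of 21 genes of TGF-beta, BMP and activin signalling 9 rose and 5 fell (median 0.13). INHBA, the activin A subunit, rose to 1.89 (SE 0.10), the repressor of SMAD complexes SKIL to 0.86 (SE 0.12) and the receptor TGFBR1 to 0.47 (SE 0.083) in the authors' deposited table. The ligand TGFB1 stood at -0.47 (SE 0.11), its binding protein LTBP3 at -0.86 (SE 0.13), the receptor-regulated SMAD3 at -0.51 (SE 0.11) and the inhibitor SMAD6 at -0.82 (SE 0.12) in the authors' deposited table. Ligand genes thus lay on both sides of 0, activin above it and TGFB1 below. BMPR2, SMAD2 and SMAD4, 3 of the 9 that rose, did not pass with the trend removed. The list then had 7 higher and 6 lower genes, some of them not called in the main test.

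The list of regulators of G protein signalling (RGS) and G protein-coupled receptor kinases had more falls than rises. Of its 18 genes, which include an alpha subunit, 8 fell and 3 rose (median -0.18). RGS16, which speeds the turnover of G protein alpha subunits, stood at -1.32 (SE 0.17), the alpha subunit GNA15 at -0.83 (SE 0.10) and the receptor kinase GRK5 at -0.60 (SE 0.15) in the authors' deposited table. The 3 that rose were GRK3 at 0.55 (SE 0.084), RGS10 at 0.46 (SE 0.14) and RGS3 at 0.56 (SE 0.21) in the authors' deposited table. RGS proteins thus lay on both sides of 0. Exon overlap and the call with the trend removed are not given for RGS10 and RGS3. GRK2, the most abundant of the list, did not pass (-0.12, adjusted p = 0.133) in the authors' deposited table.

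Enzymes of cyclic nucleotides went the other way, with 8 of 17 higher and 2 lower (median 0.16). The cAMP phosphodiesterases split. PDE4B rose to 1.31 (SE 0.15) while PDE4A fell to -1.95 (SE 0.16) in the authors' deposited table. The implied level of PDE4A was 360 under DMSO and 93.5 under mezigdomide. The regulatory subunits of protein kinase A PRKAR2B and PRKAR1A stood at 0.45 (SE 0.075) and 0.32 (SE 0.065), and the catalytic subunit PRKACB at -0.58 (SE 0.091), in the authors' deposited table. AKAP13, PDE4D and PDE3B did not pass with the trend removed, and the list then had 5 higher and 3 lower.

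Phosphoinositide enzymes had 6 of 25 members higher and 1 lower. The lipid kinase subunit PIK3CB rose to 0.64 (SE 0.063) and the kinase regulatory subunit PIK3R5 to 0.74 (SE 0.11) in the authors' deposited table. The opposing phosphatase INPP4B rose to 1.36 (SE 0.18) in the authors' deposited table. Of 23 genes of MAPK and phosphatase regulation 3 rose and 6 fell. The p38 kinases split by paralog, with MAPK13 at 0.99 (SE 0.16) and MAPK14 at 0.59 (SE 0.064) above DMSO and MAPK11 at -1.62 (SE 0.16) below it in the authors' deposited table. Among 30 ion channel genes, a list that does not hold KCNQ3, 5 rose and 5 fell, with KCNH2, a potassium channel of heart and leukaemia cells, lowest at -2.92 (SE 0.22) in the authors' deposited table.

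Of 22 Notch pathway genes 5 rose and 5 fell. RBPJ, the DNA-binding partner of the receptors, rose to 0.49 (SE 0.060) and the ligand DLL1 fell to -1.75 (SE 0.19) in the authors' deposited table. The receptor NOTCH2 and the feedback gene NRARP passed in the main test and not with the trend removed. In the Wnt list, which does not hold WNT7B, 4 of 25 rose and 5 fell, among them the receptor FZD1 (-1.26, SE 0.16) and PORCN, which attaches a lipid to Wnt ligands (-1.39, SE 0.20), in the authors' deposited table. The main intracellular carrier of the signal, CTNNB1, did not pass (0.090, adjusted p = 0.302) in the authors' deposited table. Of 16 purinergic genes 2 rose and 4 fell. The secreted adenosine deaminase ADA2 rose from an implied 447 to 1264, and the channel P2RX5 went from 363 to 145. P2RX5 shares exon bases with another gene on the same strand.

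Families of transcription factors had called members on both sides of 0. Of 18 KLF and SP factors 4 rose and 3 fell, and with the trend removed 3 were higher and 4 lower. KLF15 (1.63, SE 0.19), KLF5 (1.45, SE 0.098) and KLF4, a factor of monocyte maturation (1.05, SE 0.12), rose and KLF2 fell (-1.04, SE 0.20) in the authors' deposited table. Of 17 ETS factors 4 rose and 3 fell, with ETS1 highest (1.89, SE 0.10) and the lymphoid factor SPIB lowest (-1.75, SE 0.17) in the authors' deposited table. FLI1 and ELK4 did not pass with the trend removed, when 2 ETS factors were higher and 4 lower. SPIB shares exon bases with another gene on the same strand.

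Of 25 nuclear receptor genes 4 rose and 6 fell. NR1H3, the oxysterol receptor LXR alpha of macrophages, rose to 1.92 (SE 0.14) and its partner RXRA to 0.61 (SE 0.074) in the authors' deposited table. The retinoic acid receptors RARG and RARA stood at -1.50 (SE 0.18) and -0.36 (SE 0.11) in the authors' deposited table, and RARA did not pass with the trend removed. The MiT family member TFEC, found mainly in macrophages, rose to 1.34 (SE 0.11) in the authors' deposited table. Among 22 basic helix-loop-helix genes 6 rose and 4 fell, and with the trend removed 4 were higher and 5 lower. MXI1 and MXD1, which compete with MYC for its partner, rose to 0.85 (SE 0.068) and 0.59 (SE 0.12), while TCF3 and MLXIPL stood at -0.44 (SE 0.063) and -0.71 (SE 0.14), in the authors' deposited table.

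Chromatin complexes differed in how many of their members passed. Of 24 polycomb genes 5 rose and 5 fell, or 41.7% in all, against 30.3% of genes with a mean count of at least 50. PCGF2, a ring finger subunit, rose to 2.46 (SE 0.20) and EZH2, the methyltransferase, stood at -0.36 (SE 0.070) in the authors' deposited table. PCGF2 shares 45.7% of its exon bases with a gene on the opposite strand. Of 24 SWI/SNF genes 3 rose and 4 fell, with SMARCD3 highest at 0.80 (SE 0.16) in the authors' deposited table. With the trend removed 3 SWI/SNF genes were higher and 6 lower. Of 25 genes of histone acetylation and deacetylation 1 rose, HDAC4 (0.63, SE 0.12), and 1 fell, HDAC7 (-0.28, SE 0.092), in the authors' deposited table. HDAC7 did not pass with the trend removed. Of 16 genes of DNA methylation 1 rose and 2 fell.

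Lipid mediators made up the metabolic list with the highest share of called genes. Of 17 eicosanoid genes 6 rose and 5 fell (median 0.056). The leukotriene branch was led by ALOX5, 5-lipoxygenase, at 2.09 (SE 0.17), with LTA4H, which makes leukotriene B4, at 0.41 (SE 0.088) and the receptor CYSLTR1 at 0.70 (SE 0.092) in the authors' deposited table. LTC4S, which makes leukotriene C4, stood at -0.83 (SE 0.21) in the authors' deposited table and did not pass with the trend removed. On the prostaglandin side PTGS1, cyclooxygenase-1, rose to 0.72 (SE 0.12), and the synthase PTGDS and the receptor PTGER2 stood at -1.53 (SE 0.22) and -1.08 (SE 0.13), in the authors' deposited table.

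**Figure D5:**
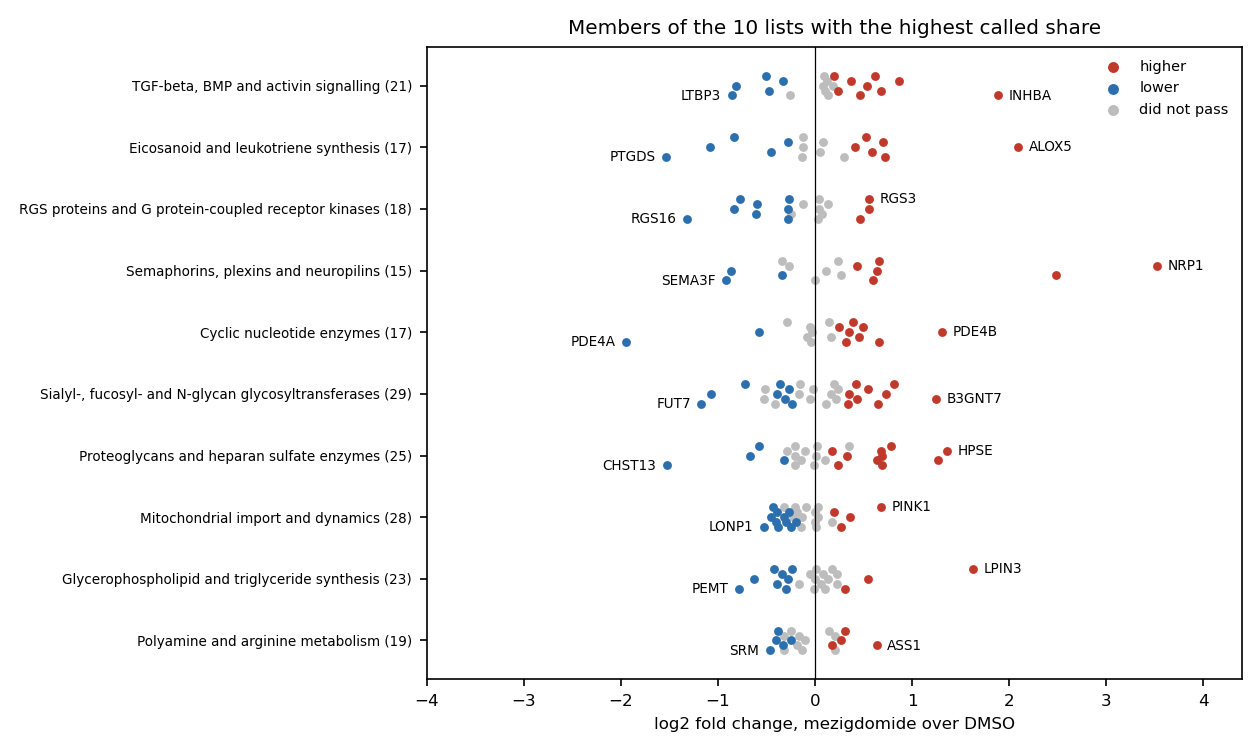
Log2 fold change of every tested member (points) in the 10 gene lists with the highest share of called members, coloured where the adjusted p was under 0.05. The member with the lowest and the one with the highest value of each list are named. Members of most of these lists lie on both sides of 0, with NRP1 at 3.52 and PDE4A at -1.95 as the extremes.

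Glycerophospholipid synthesis had 8 of 23 members lower and 3 higher. CHPT1 and PEMT, which make phosphatidylcholine, stood at -0.63 (SE 0.092) and -0.78 (SE 0.14), and the phosphatidate phosphatase LPIN3 rose to 1.63 (SE 0.20), in the authors' deposited table. PCYT1A, of the same list, rose to 0.31 (SE 0.071) in the authors' deposited table. Its exon overlap and its call with the trend removed are not given. In sphingolipid metabolism 6 of 25 rose and 4 fell, with the receptor S1PR3 at -1.05 (SE 0.12) in the authors' deposited table. Of 21 folate and one-carbon genes 6 fell and 1 rose. Among the former were SHMT2 (-0.45, SE 0.085), FPGS, which retains folates in cells (-0.49, SE 0.089), and thymidylate synthase TYMS (-0.36, SE 0.078) in the authors' deposited table. Of 24 genes of purine and pyrimidine synthesis 3 fell, with RRM2, a subunit of ribonucleotide reductase, lowest at -0.39 (SE 0.069) in the authors' deposited table. Of 25 tricarboxylic acid cycle genes 1 rose and 2 fell.

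In polyamine and arginine metabolism 4 of 19 rose and 5 fell. ODC1, the first enzyme of polyamine synthesis, and SRM, spermidine synthase, stood at -0.40 (SE 0.10) and -0.46 (SE 0.087), and ASS1, which makes argininosuccinate, rose to 0.64 (SE 0.079), in the authors' deposited table. AZIN1 and AMD1, of the same list, rose to 0.27 (SE 0.054) and 0.17 (SE 0.066) in the authors' deposited table. Exon overlap and the call with the trend removed are not given for AZIN1 and AMD1. Of 27 glutathione and antioxidant genes 4 rose and 5 fell. The membrane transferases MGST1 and MGST3 stood at 0.49 (SE 0.13) and 0.52 (SE 0.14), and the cystine carrier SLC7A11 and NQO1 at -0.69 (SE 0.14) and -0.63 (SE 0.16), in the authors' deposited table. PEX5, the import receptor of peroxisomes, stood lowest of 21 peroxisome genes at -1.02 (SE 0.089) in the authors' deposited table, where 2 rose and 4 fell. With the trend removed 3 peroxisome genes were higher and 2 lower.

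Among ATP-binding cassette transporters 5 of 17 rose and 2 fell. ABCA1, the cholesterol exporter, stood at 0.80 (SE 0.18) under 50 nM mezigdomide and at 3.50 (SE 0.18) under 1 µM iberdomide in the authors' deposited tables. ZDHHC8 stood at -2.06 (SE 0.13) under mezigdomide and -0.46 (SE 0.13) under iberdomide, and LDHD at -2.65 (SE 0.19) and -1.20 (SE 0.17), in the authors' deposited tables. These pairs were chosen after their values were seen, the doses differ, and both contrasts share the 3 DMSO libraries, so the values stand side by side with no comparison.

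Glycosyltransferase genes changed in both directions. Of 29 glycosyltransferases 9 rose and 8 fell (median -0.022). Among those that rose were B3GNT7 at 1.25 (SE 0.073), B3GNT2 at 0.81 (SE 0.081) and B3GNT5 at 0.55 (SE 0.11) in the authors' deposited table. FUT7, which completes the selectin ligand sialyl Lewis x, stood at -1.17 (SE 0.11), and the branching enzyme MGAT4B at -1.07 (SE 0.088), in the authors' deposited table. FUT7 shares exon bases with genes on both strands. Of 25 genes of proteoglycans and heparan sulfate 10 rose and 4 fell. HPSE, heparanase, rose to 1.36 (SE 0.11), the syndecan SDC2 to 0.69 (SE 0.084) and the sulfatase SULF2 to 1.26 (SE 0.21), while the sulfotransferase CHST13 stood at -1.53 (SE 0.16), in the authors' deposited table. With the trend removed 7 of this list were higher and 7 lower. SRGN, serglycin, the granule proteoglycan and the most abundant of the list with a mean count of 54873, did not pass (0.022, adjusted p = 0.940) in the authors' deposited table.

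Protein folding in the endoplasmic reticulum had more falls than rises. Of 34 members 13 fell and 2 rose (median -0.13). XBP1, the transcription factor of the unfolded protein response, stood at -0.84 (SE 0.093), the disulfide isomerase PDIA4 at -0.38 (SE 0.072), ERO1A, which reoxidises such isomerases, at -0.35 (SE 0.071) and the chaperone HSPA5 at -0.39 (SE 0.081) in the authors' deposited table. EDEM1, which marks misfolded glycoproteins for removal, rose to 0.36 (SE 0.075) in the authors' deposited table. With the trend removed 9 were lower and 1 higher.

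Of 28 genes of mitochondrial import and dynamics 11 fell and 4 rose (median -0.19). The matrix protease LONP1 stood at -0.52 (SE 0.073) and the import motor subunit TIMM44 at -0.39 (SE 0.084), and PINK1, a kinase that marks damaged mitochondria, rose to 0.68 (SE 0.11), in the authors' deposited table. PINK1 shares 39.4% of its exon bases with a gene on the opposite strand. With the trend removed 6 were lower and 2 higher, and OPA1, TOMM20 and CLPP were among those that no longer passed. In autophagy 3 of 32 rose and 3 fell, with OPTN highest (0.55, SE 0.11) and ULK2 lowest (-0.58, SE 0.13) in the authors' deposited table. With the trend removed 5 autophagy genes were higher and 2 lower.

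Of 30 actin regulators 5 rose and 3 fell, and with the trend removed 8 were higher and 3 lower. WASF1 and CYFIP1, partners in the complex that activates Arp2/3, rose to 0.80 (SE 0.086) and 0.75 (SE 0.069), and the bundling protein FSCN1 and the leukocyte protein LSP1 stood at -1.20 (SE 0.12) and -1.18 (SE 0.17), in the authors' deposited table. Of 26 myosin genes 5 rose, led by MYO7A (1.27, SE 0.13), and 1 fell, MYL9 (-0.61, SE 0.19), in the authors' deposited table. MYL9 did not pass with the trend removed.

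Of 27 tubulin and microtubule genes 7 fell and 2 rose (median -0.15). The kinesin light chains split, with KLC2 at -3.10 (SE 0.16) and KLC4 at 0.93 (SE 0.098) in the authors' deposited table. The motor KIF1B rose to 1.58 (SE 0.12) and the tubulin-binding STMN3 stood at -2.15 (SE 0.18) in the authors' deposited table. In DNA double-strand break repair 3 of 32 rose and 5 fell, with ATM at 0.55 (SE 0.16) in the authors' deposited table. ATM did not pass with the trend removed. An exon overlap of 10% or more with another gene also applies to PTGDS and RRM2 on the same strand, and TYMS, KLC4, LPIN3, NQO1, SMARCD3, CYFIP1, PEMT, RARA and HDAC7 on the opposite strand.

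Long non-coding RNA genes rose more often than they fell. Of 648 with a mean count of at least 50, 92 (14.2%) rose and 50 (7.72%) fell, while of 10703 protein-coding genes 15.6% rose and 16.7% fell. LINC01140 had the highest Wald statistic of these genes, at a log2 fold change of 2.71 (SE 0.087) in the authors' deposited table, from an implied 230.5 to 1511. It shares 17.4% of its exon bases with another gene on the same strand. INHBA-AS1, beside the activin gene INHBA on chromosome 7, stood at 1.99 (SE 0.14), and MIR503HG, the host gene of a microRNA, at -0.95 (SE 0.15), in the authors' deposited table.

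Some called genes lay side by side, and the runs given here are examples. Most runs of at least 4 consecutive protein-coding genes called the same way were lower. On chromosome 6, from 41072945 to 41286719, NFYA, TREML1, TREM2, TREML2 and TREM1 were 5 consecutive protein-coding genes with a mean count of at least 50 that all rose, by 0.26 to 4.39 on the log2 scale. On chromosome 20, the receptor genes SIRPB2, SIRPB1 and SIRPA and their neighbour STK35 rose by 0.19 to 1.38. On chromosome 16, from 56608199 to 56684196, the metallothioneins MT2A, MT1E, MT1F, MT1G and MT1X, near-identical genes among which reads may be split, lay between -0.68 and -0.41. The run with the most genes was on chromosome 5, from 892643 to 1816605, where 8 neighbours from TRIP13 to NDUFS6, among them the telomerase gene TERT, lay between -1.07 and -0.27. The next longest runs, of 6 genes each, lay on chromosomes 16 and 19 and were all lower. These runs were listed as a description, and no test was made of their number.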

How the data were processed

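Poly(A) RNA of 9 MOLM13 libraries was read as 37 bp paired ends, per the labels' protocols. Among the tools in the submitters' processing notes are STAR 2.7.5a, HTSeq 0.6.1pl and DESeq2, with the build GRCh38 and no stated roles. No annotation release or counting option is given in the sources used.

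Per the file headers, the authors deposited 2 tables of DESeq2 results. The deposited mean signal is, per the file headers, the authors' average over libraries of normalised counts, and it is identical in both tables. The deposited log2 fold changes are shrunk: rows with a mean under 0.15 reach at most 0.0132. The deposited score, the Wald statistic, is that fold change divided by its standard error. The deposited p-value is its two-sided normal p, and the adjusted p its Benjamini-Hochberg value over genes with a mean of at least 2.01. The design named a count test over libraries. Counts are not among the columns, and the authors' Wald test stands in its place.

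Left out were 136 rows that name no gene or are second copies on chromosome Y, 14497 genes with a p but no adjusted p, and all genes with no p. Gene models were GENCODE 29 (20475 of 20819 genes matched). An exon overlap of 10% or more is stated, except for genes where it is said not to be given. Promoters were RefSeq's. Since 74.1% of genes with a mean of at least 50 had one, under the 80% set as the least, the planned motif shares by direction are void and not given. The trend of the Wald statistic in GC content and log length was fitted over genes with a mean of at least 100. Fits were tested on simulated data. Python 3.11.15, pandas 2.3.3 and SciPy 1.17.1 were used.

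Named are the 30 largest rises and falls with a mean of at least 50, the 10 highest and lowest statistics, the 10 most abundant called genes and 6 long non-coding RNAs per direction, and per list up to 4 called genes per direction with the smallest p and the most abundant one, of which examples are printed. Genes named for a call that ended with the trend removed, and runs of neighbouring genes, were chosen after their values were seen. Some items are not reported here. The members and lists were chosen with earlier results of these data known.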

Additional observations from a re-analysis of the deposited data

How the results depend on the processing

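No paired analysis was possible because the deposited tables hold no value per library. For the same reason leaving out each replicate, another normalization, another test on counts and a fit of 6 libraries were not run. In 8 alternatives the count of higher genes stayed within 1.5 times of 2172 and that of lower genes within 1.5 times of 2233, except in a test against a 1.5-fold change, which called 354 higher and 161 lower genes. The other 7 gave 1584 to 2306 higher and 1519 to 2259 lower genes. Fewer genes were higher than lower in the test as deposited. The same held with a mean of at least 50 (1934 higher and 2045 lower) and with protein-coding genes only (2060 and 2259). In each other alternative more genes were higher than lower. Among these were the trend removed (2181 and 1800), fold changes centred (2306 and 2075) and adjustment over all genes with a p (1947 and 1929). With the trend removed the balance of counts also turned in the tetraspanin, KLF and SP, ETS, basic helix-loop-helix, fatty acid oxidation and peroxisome lists. The 426 genes named by the rule include some that were not called in the main test. The call of 280 ended in the test against a 1.5-fold change and that of 54 at an adjusted p of 0.01. With the trend in GC content and length removed the call of 73 of 424 ended. Of 98 list counts, 94 moved by over 1.5 times in the test against a 1.5-fold change, 28 with the trend removed, 27 at an adjusted p of 0.01, 15 without genes that share exon bases and 3 to 5 in each other alternative. A shift of the mezigdomide fold change by 1 SE moved the implied DMSO level of the 60 genes with the largest changes by 0.569% to 9.56%. The iberdomide fold change was held fixed in this, though both contrasts share the DMSO libraries. The range leaves out that shared error and the shrinkage of the fold changes. Of genes with a mean count under 10, 4.23% passed, against 21.2% of all tested genes, and the part of depth in this was not tested.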
